A study of Solanum tuberosum with 72 samples.

Results

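The first hours of chilling in potato leaves were followed on 6 of the 72 two-colour cDNA arrays of the series: 3 arrays of leaves after 3 h of cold and 3 arrays of leaves after 3 h without stress. All 6 were taken by their titles, and every spot with a value was used. Per the labels, the plants were seedlings of the variety Gilroy, raised from true potato seed (botanical seed rather than tubers) for 5 weeks on rafts over hydroponic medium, at 25 °C with 16 h of light and 8 h of dark. For cold, the medium was exchanged for medium chilled to 4 °C and the boxes stood on ice. Control plants had their medium changed in a similar way. Further arrays, also 3 a group, serve below for comparison: leaves after 9 h and 27 h and roots after 3 h, each of chilled and of unstressed plants, and leaves after 3 h of heat (medium pre-heated to 35 °C, boxes in a water-bath of that temperature) or of salt (sodium chloride added to the medium at a dose that the labels give in conflicting ways). On the cold arrays the query RNA came from chilled leaves, on the no-stress arrays it came from a further control sample, and on both the reference RNA came from control leaves of the same time. A sample pooled 6 plants from 2 boxes, a reference pooled 6 boxes, and the experiment was run independently 3 times. "Leaf" here means the aerial tissue left after the roots were taken off.

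Chilling a plant within its growing range of temperature slows membrane and enzyme function while light absorption goes on. Known early steps are calcium entry, production of reactive oxygen by plasma membrane oxidases, activation of calcium-dependent and mitogen-activated protein kinases, and the rise of transcription factors, among them the CBF regulators studied most in Arabidopsis. Later steps include the conversion of starch to soluble sugars, changes of the cell wall, and lower expression of photosynthetic genes. No clone with a CBF or DREB symbol was among those named here, and CI7, a potato dehydrin, had no value on any array. These cold markers therefore could not be read.

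The deposited value of a spot is a log2 ratio of the 2 channels, and 1 unit is a doubling. It was read as query over reference, so that positive means higher in chilled leaves. The labels give Cy3 for the query and Cy5 for the reference, but the table does not state the direction and there was no dye swap, so the direction is likely rather than settled. If it were the other way, every higher and lower below would trade places. Each cold effect is the mean of the 3 cold arrays minus the mean of the 3 no-stress arrays, called a log2 difference, which removes what dye and reference add to both. Ratios give no level of a transcript, so genes are compared by their differences only, and the green character of the tissue could not be read from its markers. In such bulk samples, a lower share of cells of 1 type and less RNA per cell cannot be told apart.

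Between 17798 and 18510 of 32448 spots had a value on an array, and all 6 medians were 0. The SD of the ratios over an array was 0.64, 0.46 and 0.45 on cold replicates 1 to 3, against 0.22, 0.26 and 0.30 on the no-stress arrays. Cold replicate 1 therefore had the widest spread, with 1670 spots beyond a 2-fold ratio against 723 and 754 on the other cold arrays, and counts are given with and without it where it matters. Over clones, cold arrays correlated with each other at r from 0.70 to 0.80, no-stress arrays at 0.31 to 0.48, and a cold with a no-stress array at -0.19 to 0.25. Each clone was printed at 2 spots, whose mean is called a probe. The SD of a single spot around that mean was 0.13 to 0.16, and the median SD of a probe over 3 arrays was 0.19 in cold and 0.13 without stress. The labels call the repeats independent. Within leaf, the p-values rest on 1 spread per probe, estimated over all 36 leaf arrays in groups of 3 and moderated over probes. They thus do not measure the spread within the 6 arrays alone.

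Of 9408 tested probes, 1578 differed between cold and no stress at 3 h (16.8%; limma's moderated test, two-sided, Benjamini-Hochberg adjusted p under 0.05). Of these, 926 were higher in cold (9.84%) and 652 lower (6.93%). The size of the change was uneven in the 2 directions: 346 called probes were higher by over 1 log2 unit and 92 were lower by as much (4.66% of the tested probes together). Beyond 2 log2 units, 52 were higher and 8 lower. The median of all tested probes was -0.01. Called probes that were higher had a median of 0.83, and those that were lower a median of -0.67. The no-stress arrays alone gave 6 of 9781 probes different from 0 (0.0613%), all of them lower. A fit of the 6 arrays alone called 1250 probes, 774 higher and 476 lower. With the replicate number as a block, 1813 were called, 1041 higher and 772 lower. Without cold replicate 1, the count of called probes in the fit without a block fell to 887, with 599 higher and 288 lower. Among the 1493 called probes with 6 values, cold replicate 1 lay furthest in the direction of the difference for 1033, replicate 2 for 266 and replicate 3 for 194. No such count is given over all probes, so this is not shown to be particular to called probes. Of the 8438 probes with 6 values, 3194 had no overlap between the groups (37.9%).

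**Figure D1:**
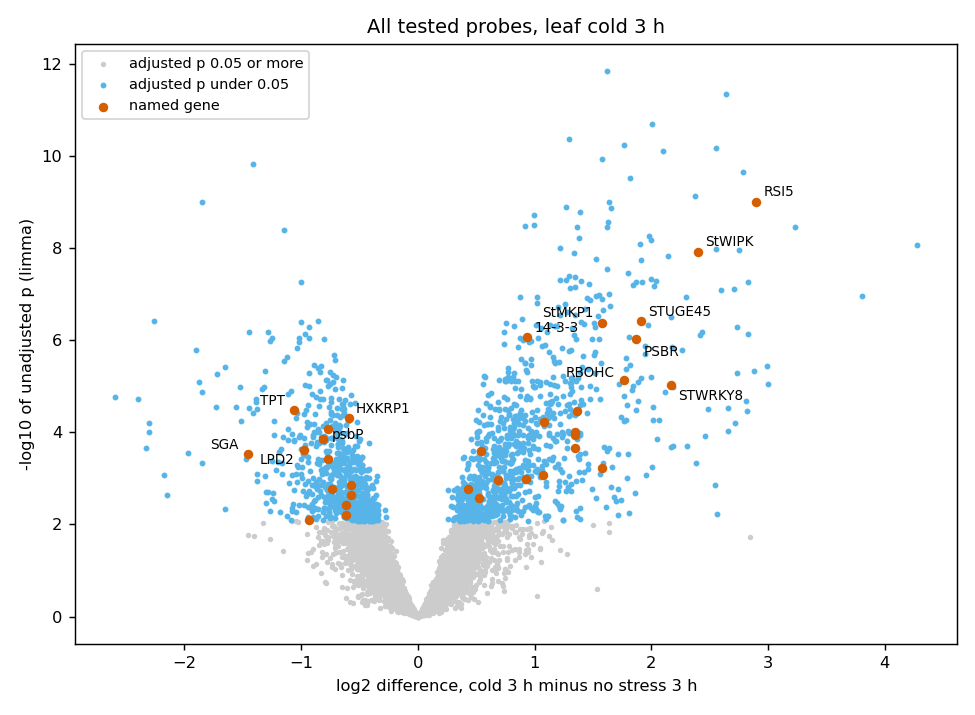
Each point is 1 of the 9408 tested probes, with the log2 difference between cold and no stress on the x axis and -log10 of the unadjusted p from limma on the y axis. Pale blue points are the 1578 called probes and orange points are the 33 genes named by rule. The right arm reaches a log2 difference of 4.28 and the left arm -2.59.

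Most of the strongest changes have no name. Of the 60 called probes beyond 2 log2 units, 55 carried no annotation, 3 belonged to genes with a name and 2 to genes with a locus number. The largest difference, 4.28 ± 0.51 (SE), came from an unannotated probe with log2 ratios of 5.26, 3.41 and 4.05 on the cold arrays and -0.19, -0.50 and 0.57 on the no-stress arrays. The lowest, -2.59 ± 0.50, was also unannotated, with -2.51, -2.89 and -2.25 in cold and 0.08, -0.19 and 0.23 without stress. Both probes were far outside the no-stress range on every cold array. Among genes with a locus number, LOC102588091 was higher by 2.07 and LOC102577576 by 2.05, while LOC102577566 fell by 1.38 and LOC102602308 by 1.30. Called probes made up 17.4% of the 321 tested probes of named genes, 15.5% of the 406 with a locus number and 16.8% of the 8629 without annotation. The named genes were thus called about as often as the array as a whole.

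Of 185 named genes tested, 47 were called, 33 of them higher and 14 lower by the probe with the largest difference. The rule for naming picked 33 of these, and the other 14 are given by group as well. On the probe shown, cold and no-stress arrays did not overlap for any of the 33. That follows in part from picking called genes and is no further evidence. The counts of called probes per gene list below stand against 9.84% higher and 6.93% lower over all tested probes. The lists were drawn up with earlier results of these data known, so a share above these is no independent evidence. A list holds 4 to 24 tested probes, several of them often from 1 gene, so a single gene can set its share. Of the 33, 18 stayed called in each of up to 15 other ways of processing the data, and the other 15 are marked in the text by the arrays or settings whose removal or change ended the call.

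**Figure D2:**
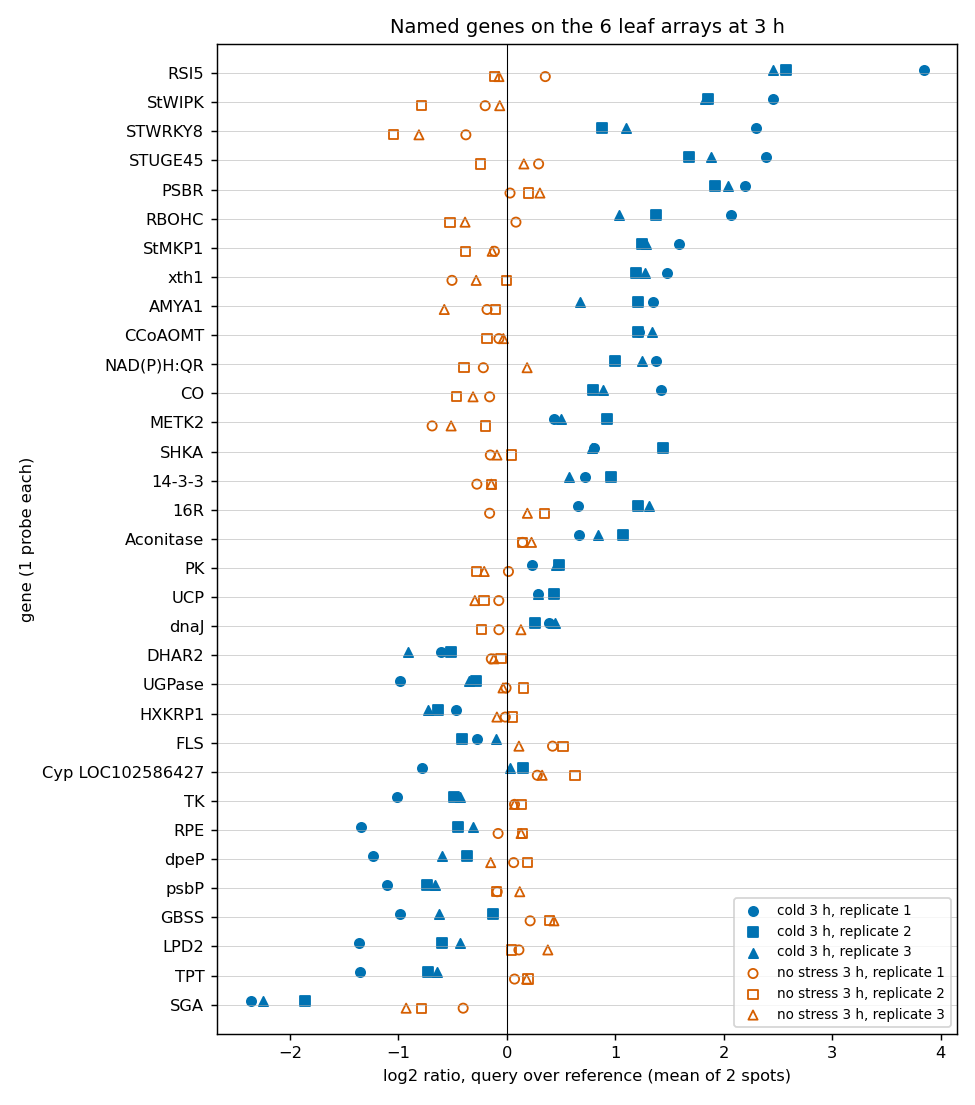
Log2 ratios of query over reference of the 33 named genes (1 probe each, mean of 2 spots) on the 3 cold arrays (filled) and the 3 no-stress arrays (open). Genes run from the highest difference, RSI5 at 2.90, to the lowest, SGA at -1.45. Cold replicate 1 (circles) is furthest from 0 in 21 of 33.

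In the list of protein kinases and phosphatases, 4 of 8 tested probes rose, from 4 genes, none fell, and the median was 0.34. StWIPK, a mitogen-activated protein kinase first known from wounding, had log2 ratios of 2.45, 1.85 and 1.83 in cold against -0.20, -0.79 and -0.07 without stress. Its difference of 2.40 ± 0.30 (SE, n = 3 arrays a group; limma adjusted p = 3.19e-06) is a 5.27-fold rise. StMKP1, a phosphatase that inactivates such kinases, stood at 1.59, 1.25 and 1.28 in cold and -0.12, -0.38 and -0.14 without stress. It rose by 1.58 ± 0.24 (adjusted p = 4.37e-05), so a kinase of this class and a phosphatase acting on the class rose in the same leaves.

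RBOHC, a plasma membrane NADPH oxidase that makes superoxide, had ratios of 2.06, 1.38 and 1.03 in cold and 0.08, -0.52 and -0.39 without stress. Its difference was 1.77 ± 0.32 (adjusted p = 0.000341), with the 3 cold arrays spread over about 1 log2 unit and all above the no-stress arrays. The calcium-dependent kinases rose less. CDPK2 rose by 0.56 ± 0.10 and CDPK4 by 0.37 ± 0.11, while the 2 probes of CDPK5 were at 0.20 and 0.32 and did not pass. StMPK3, another mitogen-activated protein kinase and not in the list, rose by 0.42 ± 0.14, and StMPK1 was at -0.06 and did not pass. StMPK3 and CDPK4 are the least secure of these. The call of StMPK3 was lost without cold replicate 1 or 2 or no-stress replicate 2 or 3 (adjusted p from 0.0868 to 0.147), and that of CDPK4 without the same 4 arrays, each left out in turn (0.0547 to 0.103). CDPK2 lost its call with the first spot of each clone alone (adjusted p = 0.0507).

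The 14-3-3 proteins bind phosphorylated partners, kinase substrates among them. Of 4 tested probes in their list, 2 rose and none fell. The gene annotated 14-3-3 had ratios of 0.72, 0.96 and 0.58 in cold against -0.28, -0.14 and -0.14 without stress. The difference of 0.94 ± 0.15 had an adjusted p of 7.13e-05. A further member, 16R, rose by 0.93 ± 0.25 on 1 of 3 probes, and its others were at -0.33 and 0.17. Its call was lost without cold replicate 3 (adjusted p = 0.0501), without no-stress replicate 1 (0.0642) and with the arrays scaled to the same spread (0.0647). RA215, also a 14-3-3 protein and not in the list, rose by 0.47 ± 0.14. That call was lost without cold replicate 2 or 3 or no-stress replicate 1 or 3 (adjusted p from 0.0608 to 0.107).

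Of 11 tested probes in the list of transcription regulators, 5 rose, none fell and 6 did not pass, with a median of 0.70, and 6 rose without cold replicate 1. The called share was 45.5%, against 16.8% over all tested probes, but the list was drawn up with earlier results of these data known. Of the 5, 2 were from STWRKY8. STWRKY8, a WRKY factor of the family that acts in defence and abiotic stress, had ratios of 2.29, 0.88 and 1.09 in cold and -0.38, -1.04 and -0.81 without stress. It rose by 2.16 ± 0.40 (adjusted p = 0.000395), and its second probe passed too, with 2.31, 0.98 and 1.16 in cold and -0.36, -0.77 and -0.41 without stress. Part of this difference came from the no-stress arrays, all of which were below 0. StWRKY16 rose by 1.31 ± 0.24, with 1.44, 0.88 and 0.72 in cold and -0.18, -0.33 and -0.39 without stress. The third WRKY gene tested, StWRKY, was at 0.44 and did not pass.

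CO, the potato CONSTANS gene, which links day length to development, stood at 1.42, 0.79 and 0.89 in cold and -0.16, -0.46 and -0.31 without stress. It rose by 1.35 ± 0.30 (adjusted p = 0.00201). BEL5, a homeodomain factor whose transcript moves from leaves to stolons and promotes tuber formation, rose by 0.70 ± 0.15 on 1 of 2 probes, the other being at 0.32. Its cold ratios were 0.67, 0.45 and 0.54 and its no-stress ratios -0.04, -0.15 and -0.24, so the groups were apart with little spread inside either. NAC2 was at 1.01 and did not pass (adjusted p = 0.0836), but passed with the replicate number as a block (adjusted p = 0.025), and IAA2, IAA3 and dof1 were between -0.18 and 0.02.

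Genes that make cell wall precursors and remodel the wall formed the list with the highest median, 0.91 over 6 tested probes, of which 4 rose and 1 fell (83.3% called). Without cold replicate 1, 2 rose and none fell. STUGE45, a UDP-glucose 4-epimerase that interconverts UDP-glucose and UDP-galactose, had ratios of 2.38, 1.68 and 1.88 in cold and 0.29, -0.24 and 0.16 without stress. It rose by 1.91 ± 0.29 (adjusted p = 4.26e-05), a 3.76-fold change. A second epimerase gene, STUGE51, rose by 1.02 ± 0.34 on the larger of 2 called probes. Its 3 cold arrays were uneven, at 1.18, 1.02 and 0.12, and the call was lost when any array except cold replicate 3 was left out (adjusted p from 0.0528 to 0.193) or with the first spot alone (0.0534).

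The gene xth1, for a xyloglucan endotransglucosylase/hydrolase that cuts and rejoins wall polymers, stood at 1.48, 1.19 and 1.28 in cold and -0.51, 0.00 and -0.28 without stress, a rise of 1.58 ± 0.40 (adjusted p = 0.00722). RGP2, a reversibly glycosylated protein of the UDP-arabinose pathway and not in the list, rose by 1.12 ± 0.23. The member that fell was UGPase, which makes UDP-glucose, the substrate of the epimerases. It had ratios of -0.98, -0.29 and -0.35 in cold and -0.01, 0.15 and -0.04 without stress, a difference of -0.58 ± 0.16 (adjusted p = 0.0138). Its second probe was at -0.47 and did not pass. The UGPase call was lost without cold replicate 1, where the difference was -0.35 (adjusted p = 0.182), without no-stress replicate 2 (0.067), in a fit of the 6 arrays alone (0.0881) and with scaled arrays (0.0578).

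In phenylpropanoid metabolism, the source of lignin and flavonoids, 2 of 7 tested probes rose and 1 fell, and 4 did not pass. CCoAOMT, a methyltransferase on the way to lignin, was even across arrays, at 1.21, 1.21 and 1.34 in cold and -0.07, -0.18 and -0.03 without stress. It rose by 1.35 ± 0.30 (adjusted p = 0.00218). SHKA, the enzyme that opens the shikimate pathway upstream of phenylalanine, stood at 0.80, 1.44 and 0.78 in cold and -0.15, 0.04 and -0.09 without stress, a rise of 1.07 ± 0.29 (adjusted p = 0.00949). Without cold replicate 2 the rise was 0.86 and did not pass (adjusted p = 0.0639). FLS, a flavonol synthase on another branch, fell on 1 of 4 probes, by 0.61 on the log2 scale with an SE of 0.19. The other FLS probes were between -0.40 and 0.21, and the fall was lost without cold replicate 1 or 2 or no-stress replicate 1 or 2 (adjusted p from 0.0829 to 0.122) and with the cold arrays tested against 0 (0.149). The list held no fallen probe without cold replicate 1.

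METK2, a synthase of S-adenosylmethionine, the methyl donor that CCoAOMT uses, rose by 1.08 ± 0.23 (adjusted p = 0.00139) and on its second probe by 0.79. Its ratios were 0.44, 0.92 and 0.50 in cold and -0.69, -0.20 and -0.51 without stress, so more of the difference than for most named genes lay below 0 on the no-stress arrays. These were the only called probes of the 24 in the list of methionine, polyamine and sulfur amino acid genes (8.33%, below the 16.8% of all tested probes), whose median was 0.20. The 7 probes of METK1, the other synthase gene, lay between 0.05 and 0.31 and did not pass.

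**Figure D3:**
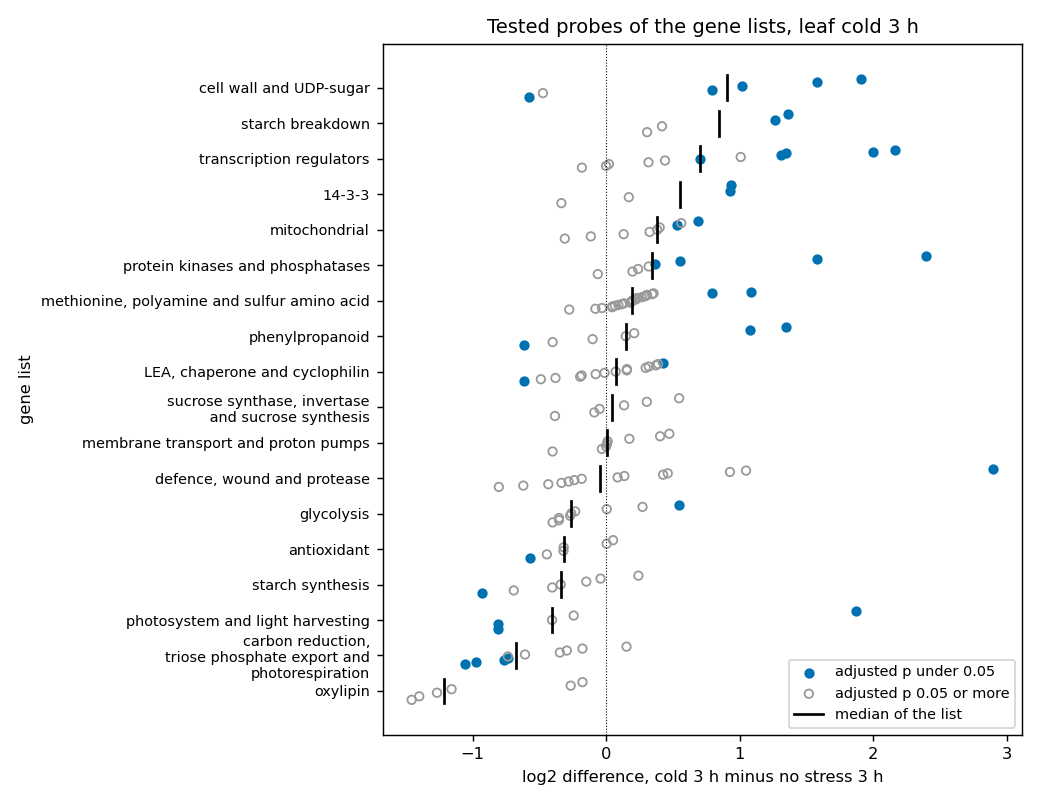
Log2 differences between cold and no stress at 3 h of the tested probes in 18 gene lists, ordered by list median (black bars); filled points are called and open points are not. Medians run from 0.91 for the cell wall and UDP-sugar list to -1.21 for the oxylipin list, in which no probe passed.

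AMYA1, an alpha-amylase that cuts starch chains, rose by 1.36 ± 0.28 on 1 probe (adjusted p = 0.000944) and by 1.27 on the other. The first probe had ratios of 1.34, 1.21 and 0.68 in cold and -0.18, -0.10 and -0.58 without stress. R1, the dikinase that phosphorylates starch before breakdown, was at 0.31 and 0.42 and did not pass, so AMYA1 alone gave the 2 risen probes among the 4 tested in the starch breakdown list, of which 1 rose without cold replicate 1. In starch synthesis, 1 of 7 probes fell and none rose (14.3% called, near the share of all tested probes), with a median of -0.34. The fallen gene was GBSS, the granule-bound synthase of amylose, at -0.93 ± 0.33 (adjusted p = 0.0487), with ratios of -0.99, -0.13 and -0.62 in cold and 0.21, 0.40 and 0.43 without stress. Its second probe was at -0.69 (adjusted p = 0.0666, and 0.0483 with the replicate block). The call of the first has the highest adjusted p among the genes named by rule. It was lost without any 1 array except cold replicate 2 (adjusted p from 0.0744 to 0.246), with the first spot alone (0.0787) and against 0 (0.0554), and without cold replicate 1 the starch synthesis list held no call.

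The gene dpeP, for the plastid disproportionating enzyme that rearranges maltodextrins, fell by 0.77 on the log2 scale with an SE of 0.17 (adjusted p = 0.00182), and its second probe by 0.49. It was not in the starch breakdown list, which names such enzymes by other symbols. Its 2 called probes, both lower, are thus outside that list's counts. The first probe had ratios of -1.24, -0.37 and -0.60 in cold and 0.06, 0.19 and -0.15 without stress. In a fit of the 6 arrays alone the adjusted p was 0.0551. HXKRP1, related to hexokinase, fell by 0.59 with an SE of 0.12 (adjusted p = 0.00122), from 0.05 or less on the no-stress arrays to between -0.47 and -0.73 in cold. None of the 6 probes for sucrose synthase and invertase passed by limma, and 1 had an unadjusted p under 0.05. They lay between -0.38 and 0.55, and 1 was called without cold replicate 1.

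Of 10 tested probes in the list of carbon reduction, triose phosphate export and photorespiration, 4 fell and none rose, with a median of -0.67 against -0.01 for all tested probes, and 1 fell without cold replicate 1. TPT, the translocator that exports triose phosphate from the chloroplast, had ratios of -1.36, -0.72 and -0.64 in cold and 0.07, 0.20 and 0.18 without stress. The fall was 1.06 on the log2 scale with an SE of 0.21 (adjusted p = 0.000923), and all cold arrays were negative while all no-stress arrays were positive. The second TPT probe was at 0.15 and did not pass. LPD2, a dihydrolipoamide dehydrogenase, a subunit shared by several mitochondrial or plastid complexes, fell by 0.98 with an SE of 0.23.

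RPE and TK, an epimerase and the transketolase of the Calvin cycle, fell by 0.77 and 0.74. RPE had ratios of -1.34, -0.45 and -0.31 in cold and TK -1.01, -0.48 and -0.44, so replicate 1 was the lowest for both. Their second probes were at -0.61 and -0.74 and did not pass, nor did GCVT at -0.35 and FBPase at -0.29 and -0.18. Without cold replicate 1, LPD2 (adjusted p = 0.0619), RPE (0.097) and TK (0.14) were lost. TK was also lost without no-stress replicate 2 (0.0542), and RPE in a fit of the 6 arrays alone (0.0832).

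For psbP, an extrinsic subunit of the oxygen-evolving complex, cold ratios were -1.10, -0.74 and -0.67 and no-stress ratios -0.09, -0.10 and 0.12. It fell by 0.81 on both of its probes (SE 0.18, adjusted p = 0.00247 on the first). For PSBR, a smaller subunit of the same photosystem, 1 of 3 probes rose by 1.87 ± 0.30 (adjusted p = 7.30e-05), with 2.20, 1.91 and 2.04 in cold and 0.03, 0.20 and 0.30 without stress. Its other probes were at -0.24 and -0.40 and did not pass. The 3 probes under the PSBR symbol thus disagree, and the rise belongs to 1 clone rather than to the gene as a whole. Of 15 clones with a value in the photosystem list, 5 could be tested on the leaf arrays at 3 h and 12 on the root arrays. The filter that left spots empty is not given in the sources used here.

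In the mitochondrial list 2 of 9 tested probes rose and none fell (22.2% called, near the 16.8% of all tested probes), with a median of 0.38, and 1 rose without cold replicate 1. Aconitase, which converts citrate, rose by 0.69 ± 0.19 on 1 of 2 probes (0.67, 1.07 and 0.84 in cold; 0.14, 0.14 and 0.23 without stress). UCP, the uncoupling protein that lets protons back across the inner membrane, rose by 0.53 ± 0.16 (0.28, 0.44 and 0.29 in cold; -0.07, -0.21 and -0.30 without stress), and its second probe was at 0.40 and did not pass. Both calls were soft. Aconitase was lost without cold replicate 2 (adjusted p = 0.0604) and with scaled arrays (0.0965). UCP was lost without cold replicate 1 or 2 or no-stress replicate 2 or 3 (0.0528 to 0.0887) and with the first spot alone (0.112). AOX, the alternative oxidase, was at -0.11 and did not pass. PK, a pyruvate kinase, rose by 0.54 ± 0.13 (adjusted p = 0.00383), while the 8 probes of GAPDH lay between -0.40 and 0.27 and did not pass.

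The highest named gene was RSI5, in the list of defence, wound and protease genes. Its ratios were 3.84, 2.57 and 2.45 in cold and 0.35, -0.11 and -0.07 without stress. The rise of 2.90 ± 0.32 (adjusted p = 6.31e-07) is 7.46-fold, and no other of the 14 tested probes of its list passed. With the replicate block 3 passed, the further probes being from LAP, a leucine aminopeptidase, at 0.43 and 0.46. The proteinase inhibitor PIN-II, a marker of wounding, was between -0.62 and -0.24 on 4 probes, and the chitinase ChtA1 at 0.93 and 1.05 with wide errors. The oxylipin list, with 6 tested probes from LOX-H1 and HPL, had the lowest median, -1.21. The 4 probes of LOX-H1, a chloroplast lipoxygenase that feeds leaf volatile synthesis, lay between -1.46 and -1.16. Yet none passed (adjusted p from 0.0808 to 0.139, with 4 at an unadjusted p under 0.05), and no probe of HPL passed either. The arrays of the probe at -1.46 were far apart, at -2.95, -1.45 and -0.49 in cold and -0.92, 0.38 and 0.01 without stress, and the groups overlapped. LOX1.5, a lipoxygenase outside that list, rose by 0.79 ± 0.20, with 0.97, 0.57 and 0.49 in cold and -0.04, -0.25 and -0.04 without stress. Without cold replicate 1 its rise was 0.64 (adjusted p = 0.0619).

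Redox and chaperone genes gave few calls. NAD(P)H:QR, a quinone reductase, rose by 1.35 ± 0.31 (1.37, 0.998 and 1.25 in cold; -0.22, -0.39 and 0.19 without stress; adjusted p = 0.00344). DHAR2, a dehydroascorbate reductase, which regenerates ascorbate, fell by 0.57 with an SE of 0.17 and was the 1 called probe of 6 in the antioxidant list. With the replicate block its second probe, at -0.44, passed as well (adjusted p = 0.0235). The call of the first was lost without cold replicate 3 or no-stress replicate 2 or 3 (adjusted p from 0.0505 to 0.0954) and with scaled arrays (0.128). In the list of LEA proteins, chaperones and cyclophilins, 1 of 15 tested probes rose and 1 fell. With the replicate block 2 fell, and without cold replicate 1 none did. The tested probe of the Lea gene did not pass with all arrays kept. The co-chaperone dnaJ rose by 0.43 ± 0.12 on 1 of 4 probes, and a cyclophilin gene, Cyp LOC102586427, fell by 0.62 with an SE of 0.21 on 1 of 6. The first was lost without cold replicate 1 or 3 or no-stress replicate 2 (adjusted p from 0.0548 to 0.109) and in a fit of the 6 arrays alone (0.0799). The second was lost without cold replicate 1 or any 1 no-stress array (0.0537 to 0.374) and under 4 other settings. None of the 8 probes for membrane transport and proton pumps passed by limma, 1 had an unadjusted p under 0.05, and their median was 0.01.

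SGA was the lowest named gene, with ratios of -2.36, -1.86 and -2.25 in cold and -0.40, -0.79 and -0.93 without stress. It fell by 1.45 with an SE of 0.35 (adjusted p = 0.00434), and its second probe by 1.31. All 6 arrays were below 0, although the no-stress mean of -0.71 did not pass against 0 (adjusted p = 0.265). With arrays scaled to the same spread the fall was 0.75 (adjusted p = 0.129). The remaining called genes were pp34 at 0.92, PPS6 at 0.86, PPS1 at 0.66, LDH-2 (a lactate dehydrogenase) at 0.47 and SI1 at -0.44. PPS6 lost its call without cold replicate 1 (adjusted p = 0.0507). Each of the other 4 lost it without 3 or more different arrays left out in turn (adjusted p from 0.0517 to 0.264).

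Cold effects at 9 h and 27 h were set beside those at 3 h, each against no-stress arrays of its own time. At 9 h, 2124 of 9419 probes were called (22.6%) and at 27 h 2077 of 9634 (21.6%), with 11.4% higher and 10.1% lower at 27 h. Of 1520 probes called at 3 h and tested at 9 h, 810 were called the same way at 9 h, which is 53.3% of the 3 h list and 38.9% of the 9 h list of 2081. With 27 h, 782 were shared, 50.0% of 1563 and 38.2% of 2047. Calls in opposite directions numbered 20 at 9 h and 10 at 27 h. Among 8930 probes tested at all times, 1514 were called at 3 h. Of those, 593 were called the same way at all 3 times and 505 at 3 h alone. Of the 33 named genes, 19 were called the same way at 9 h and 21 at 27 h, and none the opposite way.

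The change over time itself passed for fewer probes. Between 3 h and 9 h the cold effect changed for 248 of 9032 probes (2.75%), upward for 148 (1.64%) and downward for 100 (1.11%). By 27 h it had changed for 126 of 9213 (1.37%), upward for 59 (0.640%) and downward for 67 (0.727%). The 27 h count was 216 with the replicate number as a block. Pairing by number was examined for the leaf arrays at 3 h only, not across times. Without the block, the 27 h count was reduced to 68 without cold replicate 1, 69 without no-stress replicate 1 and 73 without no-stress replicate 2. The 9 h count fell to 156 without no-stress replicate 3. Of the 248, 71 were called at 3 h and not at 9 h, 136 at 9 h and not at 3 h, 38 at both and 3 at neither. A probe called at one time and not at the other is thus in most cases not shown to differ between times.

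RSI5 was at 2.90, 3.13 and 2.84 after 3, 9 and 27 h, TPT at -1.06, -0.81 and -0.91, and psbP at -0.81, -0.98 and -0.76. For these genes no change over time passed, with an SE of 0.46 for those of RSI5. That does not show a constant effect. STUGE45 stood at 1.91, 3.06 and 2.23 and CCoAOMT at 1.35, 2.21 and 2.21, and neither change over time passed. StWIPK was highest at 3 h, with 2.40 against 1.03 at 9 h and 0.98 at 27 h, yet its differences over time had adjusted p of 0.087 and 0.0867. RBOHC was at 1.77, 0.17 and 1.03, and it was not called at 9 h. Its change of -1.59 from 3 h to 9 h had an adjusted p of 0.0563, and of 0.0261 with the replicate block. Among probes of named genes called at 3 h, the change over time passed for 4. CO was at 1.35 and 1.77 at 3 h and 9 h and at -0.62 at 27 h, a change of -1.97 from 3 h (adjusted p = 0.0134, and 0.0525 without cold replicate 1). Aconitase was at 0.69, -0.36 and 0.70, a change of -1.05 from 3 h to 9 h (adjusted p = 0.0272). This was lost without cold replicate 2 or any 1 no-stress array, with the first spot alone and in a fit of the compared groups alone (0.0501 to 0.0814). FLS was at -0.61, 0.06 and 0.53, a change of 1.14 by 27 h (adjusted p = 0.0299), lost without cold replicate 1 or 2 or no-stress replicate 1 or 2 and in the same 2 other fits (0.0521 to 0.0977). LOX1.5 was at 0.79, -0.45 and 0.08, a change of -1.24 by 9 h (adjusted p = 0.0114), which kept its call under all 9 alternatives of this comparison.

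Further named genes had no call at 3 h and changed later. For ChtA1, the effect of one probe was 1.05 at 3 h, 2.76 at 9 h and 4.52 at 27 h, and of the other 0.93, 3.01 and 4.10, both called at 9 h and 27 h. The changes from 3 h to 27 h were 3.47 (adjusted p = 0.00652) and 3.17 (0.0239), the second of which was lost without cold replicate 2 or no-stress replicate 1. The sucrose synthase gene sus4 was at -0.09 and 0.13 at 3 h and at 1.26 and 1.32 at 9 h on 2 probes, changes of 1.35 and 1.18 (adjusted p = 0.00793 and 0.00638, and 0.0837 and 0.0536 in a fit of the compared groups alone). The invertase InvCD141 went from 0.55 to -1.23, a change of -1.77 (adjusted p = 0.0356). SAMDC, the S-adenosylmethionine decarboxylase of polyamine synthesis, changed upward from 3 h to 9 h on 3 probes, by 0.89 to 1.43. SBE1, a starch branching enzyme, was at 0.24, 1.19 and 1.31 after 3, 9 and 27 h, and both changes passed (adjusted p = 0.0402 and 0.0297). The calls of InvCD141, SAMDC and SBE1 were each lost without 3 or more different arrays left out in turn (adjusted p up to 0.129 over all alternatives). By 9 h the effect was also more positive for 1 probe each of VPE2 (1.13) and NtK-1-like (0.62), and more negative for CS-B (-0.66), plc3 (-0.90) and PEST2 (-1.29). CS-B and PEST2 kept the call under all 9 alternatives. VPE2 lost it without cold replicate 2 or no-stress replicate 3 and in a fit of the compared groups alone (adjusted p from 0.0557 to 0.0725). In that fit NtK-1-like (0.0908) and plc3 (0.0505) were lost as well. By 27 h 1 of the 8 GAPDH probes had changed, by 0.91 (adjusted p = 0.0475). That call was lost under 5 of 9 alternatives (adjusted p up to 0.157).

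**Figure D4:**
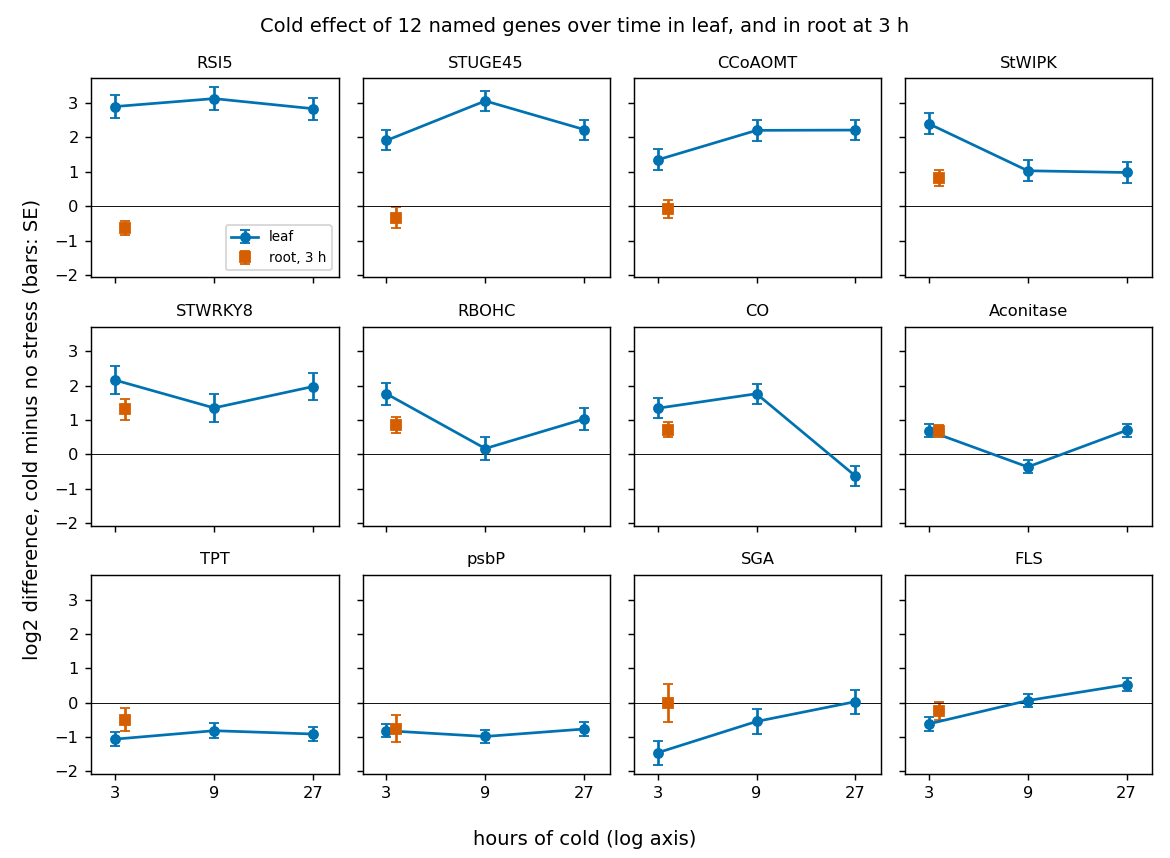
Log2 difference between cold and no stress (points, with SE bars from the fit) of 12 named genes after 3, 9 and 27 h in leaf (blue, log time axis) and after 3 h in root (orange, drawn slightly to the right). RSI5 stays between 2.84 and 3.13 in leaf and is at -0.63 in root, and CO falls from 1.77 at 9 h to -0.62 at 27 h.

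The list counts at the later times stand beside 16.8%, 22.6% and 21.6% of all tested probes called at 3, 9 and 27 h. In the methionine, polyamine and sulfur amino acid list, 2 of 24 tested probes were higher at 3 h, 13 of 25 at 9 h and 8 of 24 at 27 h, and none was lower at any time. In glycolysis, where all but 1 of the 9 tested probes are from GAPDH, 1 rose at 3 h and 6 at 27 h. The mitochondrial list had 2 of 9 higher at 3 h and 6 of 9 at 27 h. The carbon reduction list had 4 fallen probes at 3 h, 8 at 9 h and 4 at 27 h, of 10 each time. The cell wall and UDP-sugar list had 4 of 6 higher at 3 h, 1 at 9 h and 2 at 27 h. The difference over time was not tested for a list as a whole.

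In roots of the same seedlings, 1202 of 9123 probes were called after 3 h of cold (13.2%), 564 higher (6.18%) and 638 lower (6.99%). Of the probes tested in both tissues, 351 were called the same way, 23.1% of the 1518 leaf calls and 30.2% of the 1161 root calls, and 52 were called in opposite directions. The cold effect itself differed between leaf and root for 655 of 8710 probes (7.52%), more positive in leaf for 518 (5.95%) and more negative for 137 (1.57%). Of the 655, 292 were called in leaf and not in root, 239 in root and not in leaf, 64 in both and 60 in neither.

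RSI5 rose by 2.90 in leaf and was at -0.63 in root, where it fell (adjusted p = 0.047), a difference of 3.53 ± 0.40 (adjusted p = 5.08e-09). AMYA1 likewise rose by 1.36 in leaf and fell by 0.63 in root, a difference of 1.99 ± 0.35. STUGE45 was at -0.33 in root, PSBR at 0.04 and CCoAOMT at -0.08, none of them called there, and their differences of 2.24, 1.84 and 1.43 passed. StWIPK rose in both tissues, by 2.40 in leaf and 0.82 in root, and the difference of 1.57 ± 0.39 passed (adjusted p = 0.00647). BEL5 rose by 0.70 in leaf and fell by 0.59 in root, a difference of 1.29 ± 0.23 (adjusted p = 9.19e-05). StWRKY16 and the gene annotated 14-3-3 were at 0.04 and -0.26 in root, without a call there, and differed by 1.27 and 1.19. The effect was also more positive in leaf for StMKP1 by 1.04 (adjusted p = 0.0354), pp34 by 1.30, UCP by 0.74 and 0.66 on its 2 probes, RA215 by 0.64 and CDPK4 by 0.44. These genes and StWRKY16 each lost the call without 2 or more different arrays left out in turn (adjusted p up to 0.192 over all alternatives), and CCoAOMT without no-stress replicate 2 (0.0534).

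A difference between the tissues also passed for 8 probes of named genes without a call in leaf at 3 h. NAC2, at 1.01 in leaf, fell by 1.01 in root, a difference of 2.02 (adjusted p = 0.0117). IPMK was at -0.77 in leaf and -3.15 in root and isi1 at -0.80 and -3.43, both called in root, with differences of 2.38 and 2.62. VPE2 was at 0.14 in leaf and fell by 2.21 in root, a difference of 2.35. The 2 probes of cyp LOC102582822 differed by 1.53 and 1.21, and the second was lost when any 1 array except cold replicate 1 was left out. A second FLS probe was at -0.40 in leaf and 0.39 in root, a difference of -0.79 (adjusted p = 0.0223), which was lost without cold replicate 1 or no-stress replicate 2.

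For STWRKY8, CO, RBOHC, Aconitase, xth1, HXKRP1 and GBSS no difference between tissues passed. With the replicate block, those of NAD(P)H:QR (1.48, adjusted p = 0.0391) and METK2 (1.06, 0.0446) did. STWRKY8 rose by 1.31 in root, CO by 0.72, RBOHC by 0.85 and Aconitase by 0.69, all called there. For xth1 the root value of 2.17 was above the leaf value of 1.58, with a difference of -0.59 ± 0.54 (adjusted p = 0.583). HXKRP1 fell by 1.13 in root and GBSS by 0.94, against 0.59 and 0.93 in leaf. On the probe shown, none of the 13 named genes that were lower in leaf differed between tissues by this test.

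**Figure D5:**
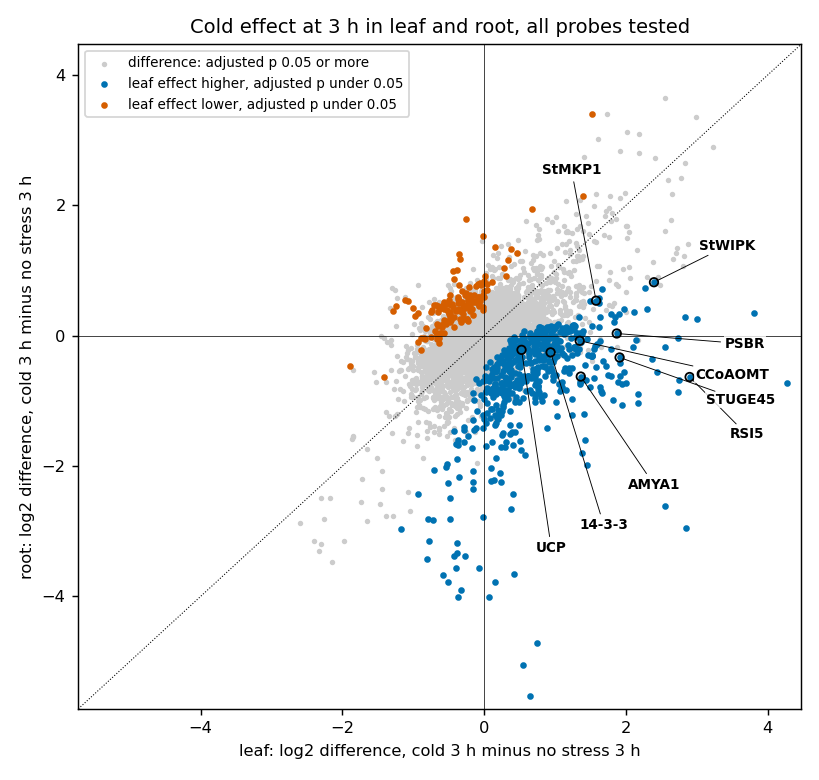
Cold effect at 3 h (log2 difference between cold and no stress) in leaf on the x axis and in root on the y axis for the 8710 probes tested in both; the dotted line marks equal effects. Blue points (518) have a higher effect in leaf and orange points (137) a lower one at adjusted p under 0.05; the 9 labelled genes are named genes that passed.

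After 3 h, cold stood apart from the other stresses in leaf by the number of calls: 77 of 9524 probes were called in salt (0.808%; 0.756% higher and 0.0525% lower) and 64 of 9429 in heat (0.679%; 0.382% higher and 0.297% lower), against the same no-stress arrays as cold. Because they share these arrays, cold and salt arrays were also compared directly, and 943 of 9410 probes differed (10.0%), 574 higher in cold (6.10%) and 369 lower (3.92%). The count was 410 without cold replicate 1 and 333 in a fit of the 6 arrays alone. StWIPK was higher in cold than in salt by 2.06 ± 0.30, RBOHC by 1.93 ± 0.32, RSI5 by 1.26 ± 0.32 and TPT lower by 0.87 with an SE of 0.21, and all passed. Of the 33 named genes, 20 passed in this comparison, each with cold further in the direction of its cold effect. That direction follows in part from the choice of the genes on the same cold arrays. With the replicate block AMYA1, DHAR2, HXKRP1 and LPD2 passed as well (adjusted p from 0.0235 to 0.0479). RSI5 and STUGE45 were also called in salt against no stress, at 1.64 and 1.32, and STUGE45 did not differ between cold and salt by the test (0.59 ± 0.29, adjusted p = 0.21). None of the 33 was called in heat, where StWIPK was at 0.12 and RSI5 at -0.32.

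A further 10 named genes had a value on some array but too few at 3 h to be tested, among them PSBO, SHMT and cab1 of photosynthesis, the sucrose transporter SUT2 and the kinase CDPK1. StP2C had a value on all 3 cold arrays and on 1 no-stress array. Over the whole array, 87 probes had values on all 3 cold arrays and on at most 1 no-stress array, and 122 the reverse. These were left out of every count above.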

How the data were processed

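The values are log2 ratios of 2 channels per spot, 1 per spot and array, as deposited by the authors. Per the labels, the query carried Cy3 and the reference Cy5. How the background was corrected, how arrays were normalized and which filter emptied spots is not stated in the labels or files. On all arrays the deposited log2 values match ratios rounded to 2 decimals where tested, and on the 6 arrays of this comparison the medians are 0.

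The spot order was read as 48 blocks of 26 by 26 spots with each clone at 2 spots. In each of the 905 annotated pairs the accession matched. The median correlation of paired spots was 0.931 for annotated and 0.812 for other clones, against 0.00228 for random pairs. Spots of a clone were averaged, which gave 11037 probes with a value on some array. No signal or background values were used, so the number of arrays sets the precision. Gene names came from the platform annotation, updated through the potato RefSeq gene table (SolTub_3.0, names only). Probes with several symbols were not named.

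The test was limma 3.58.1 in R 4.3.3 (lmFit and eBayes, two-sided) over all 36 leaf arrays, with 1 mean per group and no block, or over all 72 arrays for leaf against root. A probe was tested with values on 2 or more of the 3 arrays of each group compared, and called at a Benjamini-Hochberg adjusted p under 0.05 within the comparison. SE is the moderated one. The procedure was also run on simulated data with independent noise and the same spread of a probe on every array. That run does not cover the pairing of the arrays or the wider spread of cold replicate 1.

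Replicate numbers are part of the array titles, and the labels state independent repeats. Those of differently numbered cold and no-stress arrays, as deviations from their group means, correlated at -0.289 to -0.0108 over probes. These lower values follow in part from the higher ones, because deviations within a group cancel for each probe. Deviations of same-numbered arrays correlated at 0.316, 0.323 and 0.287. The numbers were therefore taken to pair these cold and no-stress arrays at 3 h, as judged from the data. The replicate block also spans the other groups, where pairing was not examined. Counts, SE and adjusted p nonetheless come from fits without the block unless the block is named, as do the fits that leave out an array. The fit with a replicate block is given where it moves a result.

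Named genes were the 12 highest and 12 lowest called genes with a name, by the probe with the largest difference, plus up to 2 called members in each direction of each gene list. The 14 called genes that this leaves out were added after their values were seen, as were the unannotated extremes and the locus numbers given. The comparison, the genes and the lists were chosen with earlier results of these data known. Alternatives were the replicate block, fits of the compared groups alone, first spots, tests against 0, median centring, scaled arrays, array weights, complete values, a robust variance and each array left out.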

Additional observations from a re-analysis of the deposited data

Results flagged for a closer look

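The cold effect at 3 h differed between leaf and root, by limma's test of the difference itself, for 14 probes of named genes called in leaf, and in each it was more positive in leaf. That direction follows in part from the choice of these genes, most of which were higher in cold leaves. By size, the leaf minus root differences on the log2 scale were 3.53 for RSI5, 2.24 for STUGE45, 1.99 for AMYA1, 1.84 for PSBR, 1.57 for StWIPK, 1.43 for CCoAOMT, 1.3 for pp34, 1.29 for BEL5, 1.27 for StWRKY16, 1.19 for 14-3-3, 1.04 for StMKP1, 0.745 for UCP, 0.642 for RA215 and 0.435 for CDPK4. The adjusted p ran from 5.08e-09 for RSI5 to 0.0494 for CDPK4. RSI5, AMYA1 and BEL5 were called in opposite directions in the 2 tissues. The PSBR value belongs to 1 clone of 3 tested. A further 8 probes of named genes differed without a call in leaf: isi1 by 2.62, IPMK by 2.38, VPE2 by 2.35, NAC2 by 2.02, cyp LOC102582822 by 1.53 and 1.21, UCP on its second probe by 0.663 and FLS on its second probe by -0.788.

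The cold effect in leaf changed with time for 4 of the probes of named genes called at 3 h. It changed by -1.05 for Aconitase and by -1.24 for LOX1.5 from 3 h to 9 h, and by -1.97 for CO and 1.14 for FLS from 3 h to 27 h. For Aconitase the effect at 27 h, 0.70, was close to the 0.69 at 3 h. Among probes of named genes without a call at 3 h, 12 changed by 9 h: SAMDC by 1.43, 1.14 and 0.892, sus4 by 1.35 and 1.18, VPE2 by 1.13, SBE1 by 0.947, NtK-1-like by 0.624, CS-B by -0.664, plc3 by -0.896, PEST2 by -1.29 and InvCD141 by -1.77. By 27 h, 4 had changed: ChtA1 by 3.47 and 3.17, SBE1 by 1.07 and GAPDH by 0.915. Of these 42 differences in tissue or time, 15 passed under every alternative tried for their comparison, and none reversed. The other 27 were lost under 1 or more, 16 of them without no-stress replicate 2 and 15 without no-stress replicate 3, and none with the replicate block. No explanation was tested for any of these differences.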

How the results depend on the processing

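The count of probes called at 3 h stayed within 1.5 times of 1578 in all but 2 alternatives: 2990 with the cold arrays tested against 0, and 887 without cold replicate 1. Leaving out 1 array at a time gave 887 to 1614. In the other comparisons only the 3 h leaf arrays of cold and, where they enter, of no stress were left out in turn, and no array of salt, of a later time or of root. For the change from 3 h to 9 h (248 called) this gave 156 to 249, and for 3 h to 27 h (126 called) 68 to 142. For leaf against root (655) it gave 465 to 654. For cold against salt (943) it gave 410 to 1086, and a fit of the 6 arrays alone gave 333. Pairing by replicate number was examined between cold and no-stress leaf arrays at 3 h only, not for later times, root or salt. With the replicate block, the counts were 1813 at 3 h, 318 for 9 h and 216 for 27 h. They were 775 for leaf against root and 1096 for cold against salt. The 27 h count was the only one of the 5 that the block moved by over 1.5 times, and it ended no call at 3 h among the tested probes of named genes. It added 9, among them THF1 at -0.64 (adjusted p = 0.0285), TSF at 0.75 (0.0103) and v3 at 0.34 (0.0409), which are not in the text above. In the other 4 comparisons it ended no call of a gene given above, and among genes called at 3 h it added 10, of which those on Cyp LOC102586427 for both times (adjusted p = 0.0335 and 0.0333) and LOX1.5 against salt (0.0315) are not in the text above. No named gene reversed its direction under any of the 15 alternatives at 3 h. Of the 33 picked by rule, 18 stayed called throughout, and 9 lost the call without cold replicate 1, the most for any alternative, followed by 8 without no-stress replicate 2. Limma's array weights for cold replicates 1 to 3 were 0.337, 1.3 and 1.49. Of the 14 other genes, StWRKY16, RGP2 and BEL5 stayed called throughout. The list counts without cold replicate 1 were added after seeing the data. With 3 pooled samples a group, small changes can be missed, and without signal values the brightness of a spot over its background is unknown here. The causes were not tested.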
